A study of Mus musculus with 12 samples.

Results

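The cytosolic ribosomal protein genes encode the protein part of the ribosome that translates nuclear messages. They were picked by gene symbol alone, as the large subunit names Rpl with a number, the small subunit names Rps with a number, Rplp0, Rplp1, Rplp2, Rpsa and Fau, without the Rps6 kinases and without 29 pseudogenes. The rule found 77 of 20738 genes measured: 44 of the large subunit, 26 of the small subunit and 7 paralogues, which are Rpl3l, Rpl7l1, Rpl10l, Rpl22l1, Rpl39l, Rps4l and Rps27l. They lie on 19 chromosomes, 4 of them on the X chromosome (Rps4x, Rpl10, Rpl36a and Rpl39). Rpl36al, just outside the rule, stayed between 12.49 and 12.83 log2 signal on all 12 arrays.

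RNA of single mid-gestation mouse lungs on a C57bl/6J background was hybridised to 12 one-colour arrays, 3 for each group. In the LOF 6 h and LOF 9 h groups, a transactivator driven from the Rosa26 locus in all cells and a tet(O) transgene made a soluble FGFR2b, a decoy for the ligands of the receptor, 6 h or 9 h after the mother received doxycycline. In the GOF 9 h group, the same transactivator drove a tet(O) Fgf10 transgene for 9 h of doxycycline. The control group is labelled wild-type and untreated, whereas the methods describe littermates that carry the transactivator, from injected mothers, some collected at 6 h and some at 9 h. The labels do not say which control array belongs to which time, so neither LOF group is compared with controls of its own time alone, and whether the controls share transactivator and doxycycline with the other groups was not settled. The decoy and the transgene are made in the whole embryo and not in lung epithelium alone. Whether the 3 lungs of a group came from different litters is not given, so p-values measure the spread between these lungs. In whole lungs, fewer cells of a type and less RNA per cell cannot be told apart.

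Etv5, an ETS transcription factor that FGF signaling switches on, had 10.65 to 10.99 log2 signal in LOF 6 h lungs, 10.21 to 10.40 in LOF 9 h lungs, 12.55 to 12.98 in GOF 9 h lungs and 12.54 to 12.87 in control lungs. It passed the test as lower in both LOF groups against control. The brightest of 10 Fgf10 features read 7.34 to 8.12 in lungs labelled GOF 9 h, against 7.43 to 7.94 in control lungs, and these ranges overlap. The other Fgf10 features are not given. Whether the brightest feature reads the transgene is not given, so it does not check the label. Sftpc, the surfactant protein that marks distal lung epithelium, was present at 8.20 or more on all arrays and passed as lower in LOF 9 h lungs (-2.86 ± 0.32, SE, adjusted p of 0.00905 with limma), and Tbx4, a transcription factor of lung mesenchyme, was measured at 10.50 to 11.23.

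Ribosomal protein messages are among the most abundant messages of growing cells. Their products are made in equal amounts, are imported into the nucleolus and are built onto ribosomal RNA by a large set of assembly factors. Most of these messages begin with a C followed by a run of pyrimidines, the terminal oligopyrimidine tract, through which mTORC1 and LARP1 control their translation and stability, so that the amount of protein made can move while the amount of message does not. Arrays read the amount of message only.

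The start windows below, 8 bases before to 22 bases from the annotated start, show runs of pyrimidines near the start in 4 ribosomal protein genes and in a pair of non-coding snoRNA host genes, which carry small nucleolar RNAs in their introns. They are examples chosen after the windows were seen. Capitals mark the longest run of C and T in the window, and sequences and positions are those of RefSeq on GRCm38.p6.
Rps6, chr4:86857346-86857375, minus strand: agtcgggCCTCTTTTTCgtgacgcctccca
Rpl35, chr2:39005110-39005139, minus strand: gCCCTTTCCTCTTTCTCTCgaaccaggctg
Rps10, chr17:27635223-27635252, minus strand: gcacgCCCCTTCCTTTCCagcctccgcctc
Fau, chr19:6057939-6057968, plus strand: ccccaCTTCTTCCTCTTTCTTgactccatc
Snhg16, chr11:116671652-116671681, plus strand: gcaagcgcgatctcgTCCTTTCCgaggtcc
Snhg12, chr4:132308670-132308699, plus strand: ctcagTCCTTTCTCgcttcatccgcggtcc

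Because ETS factors such as Etv5 read a GGAA core, the same windows are shown for 3 ribosomal protein genes with the letters CCGGAAG close to the start, in capitals.
Rpl11, chr4:136053372-136053401, minus strand: ataaggccacggggCCGGAAGtctccctct
Rpl26, chr11:68901558-68901587, plus strand: caacttacagaaCCGGAAGtcgcgtgtagt
Rps27l, chr9:66946078-66946107, plus strand: tccccgccgcctctatcCCGGAAGttgctg

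Start windows of 300 bases, from 250 before to 50 after the start, were held for 62 of the 77 genes. CCGGAAG was found on either strand in 26 of the 62, or 41.9%, against 33.3% of 21 ribosome biogenesis genes and 9.93% of 27025 genes with a window. AAGATGGC, letters read by YY1, was found on either strand in 11.3%, against 3.19% of all. CACGTG, the E-box read by MYC, stood on either strand in 9.68%, against 14.3% of the biogenesis genes and 8.09% of all. CTTTC on the coding strand, searched from 50 before to 50 after the start, was found in 31 of the 62, or 50%, against 3 of 6 snoRNA host genes, 19.0% of the biogenesis genes and 14.6% of all. None of these 4 words is contained in another. A match is not a binding site, and a missing match says only that the letters are not in the window.

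Most of these genes gave a high array signal. Of the 77 genes, 70 had a mean of 13 or more on the log2 scale and 64 had a feature among the brightest 629 of 62976, which is the top 1%. The value of 13 was set after the levels were seen. Rplp0, which anchors the stalk of the large subunit, Rpl41, the shortest ribosomal protein, and Rps24 had the highest means, and no value on any array exceeded 15.92. Rpl3l, Rpl39l and Rpl10l, paralogues best known from muscle or testis, had means of 2.32, 2.50 and 2.68, below the array median of 2.98. The remaining 4 genes, Rpl21, Rpl7l1, Rps4l and Rps21, had means of 6.83, 7.01, 10.7 and 11.6. A signal depends on the probe, so these levels do not rank the messages by abundance.

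Replicate lungs of a group were close to each other. The SD within groups had a median of 0.0695 over the 70 bright genes, with a range of 0.0285 to 0.176, against 0.0981 over 352 other genes with a mean of 13 or more and 0.342 over all genes. The 352 genes share the floor of 13 with the 70 and were not matched to them for signal. The plot of signal and spread shows the ribosomal protein genes at the bright and quiet end, with the dim paralogues apart from them.

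**Figure D1:**
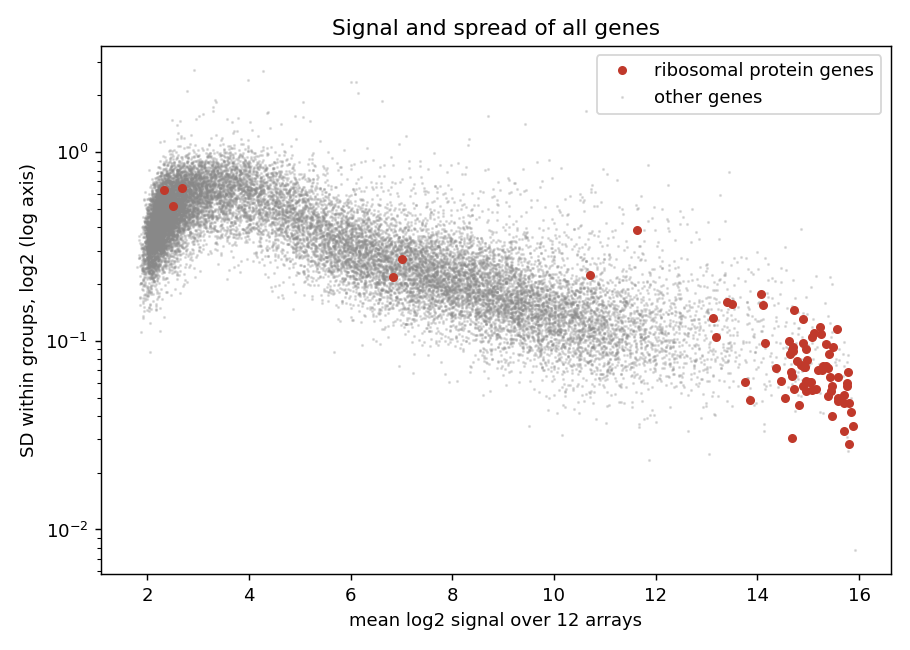
Each point is a gene, with its mean log2 signal over 12 arrays on the x axis and its SD within groups on a log y axis. Red points are the 77 ribosomal protein genes, of which 70 lie at 13 or above with SDs of 0.0285 to 0.176, and grey points are all other genes.

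No ribosomal protein gene passed the test in LOF 6 h lungs against control lungs. With limma and Benjamini-Hochberg adjustment, 0 of 77 had an adjusted p under 0.05, against 0.0723% of all genes, and 0 of 77 had an unadjusted p under 0.05, against 9.36% of all genes. The median log2 change of the 77 was 0.025, and that of all genes was also 0.025. With each array centred on its median instead, both turned negative, to -0.0394 and -0.0396. The LOF 6 h and control values did not overlap for 3 genes, Rpl23a, Rpl26 and Rpl41, all lower, against 16.4% of all genes.

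In LOF 9 h lungs against control lungs, 0 of 77 passed, against 0.0723% of all genes, and 0 of 77 had an unadjusted p under 0.05, against 7.92%. The median change was 0.007 over the 77 and -0.00023 over all genes. The groups did not overlap for 6 genes, against 15.4% of all genes: Rpl23a, Rpl35a, Rpl36a, Rpl37a and Rps26, lower in LOF 9 h lungs, and Rps27, higher. In GOF 9 h lungs against control lungs, 0 of 77 passed, where 0% of all genes did, and 0 of 77 had an unadjusted p under 0.05, against 5.15%. There the median was 0.014 over the 77 and 0.002 over all genes, and the groups did not overlap for 3 genes, Rpl23a, lower, and Rpl37 and Rpl38, higher, against 9.42% of all genes. All 3 comparisons use the same control arrays, and Rpl23a is counted each time against the same 3 control values.

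In LOF 9 h lungs against LOF 6 h lungs, 0 of 77 passed, against 0.0627% of all genes, 0 of 77 had an unadjusted p under 0.05, against 10.2%, and the groups did not overlap for 7, 6 of them lower in LOF 9 h lungs, against 17.6%. In GOF 9 h lungs against LOF 9 h lungs, 0 of 77 passed, against 0.28% of all genes, 0 of 77 had an unadjusted p under 0.05, against 11.9%, and the groups did not overlap for 4, against 17.8%: Rps27l, Rpl36a, Rpl35a and Rpl37a, all higher in GOF 9 h lungs. The median changes of the 77 were -0.011 and 0.008 in these comparisons. For LOF 9 h against LOF 6 h, centring on array medians turned the median to 0.0493, beside 0.0336 over all genes.

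The intervals bound the change in normalized signal, not in message. Quantile normalization sets each value by the rank of the feature on its array, and 64 of the 77 genes rank in the top 1%, so a larger change of message, or one shared by most bright features, could lie behind them. Rpl37a, for example, had the same value of 15.67 on all 3 LOF 9 h arrays. All 70 bright genes had log2 changes smaller than 0.25 either way in each of the 5 comparisons, as did 54.5% to 62.6% of all genes. The 95% interval of the change lay within 0.5 either way for 69 of the 70 in LOF 6 h against control, for all 70 in LOF 9 h against control and for 69 in GOF 9 h against control, whereas it did so for 20.6%, 21.0% and 24.1% of all genes in these comparisons. In both comparisons without control it did so for all 70, against 19.7% of all genes for LOF 9 h against LOF 6 h and 18.6% for GOF 9 h against LOF 9 h. The exceptions were Rpl4 in LOF 6 h lungs and Rps2 in GOF 9 h lungs. Most of all genes are dimmer and vary more than these 70, and the shares for the 352 other bright genes are not given. The shares over all genes therefore do not show that narrow intervals are particular to ribosomal protein genes. The limma fit moves each gene's spread towards that of all genes, so the median SE of the 77 changes was 0.111, against 0.0587 from each gene's own spread. On its own spread, an analysis added after the spread was seen, 1, 3, 0, 2 and 2 of the 77 had an unadjusted p under 0.05 in the 5 comparisons, and 0 passed after adjustment in each of them. The shares of all genes at an unadjusted p are not given for that fit, so these counts are not read as a result.

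**Figure D2:**
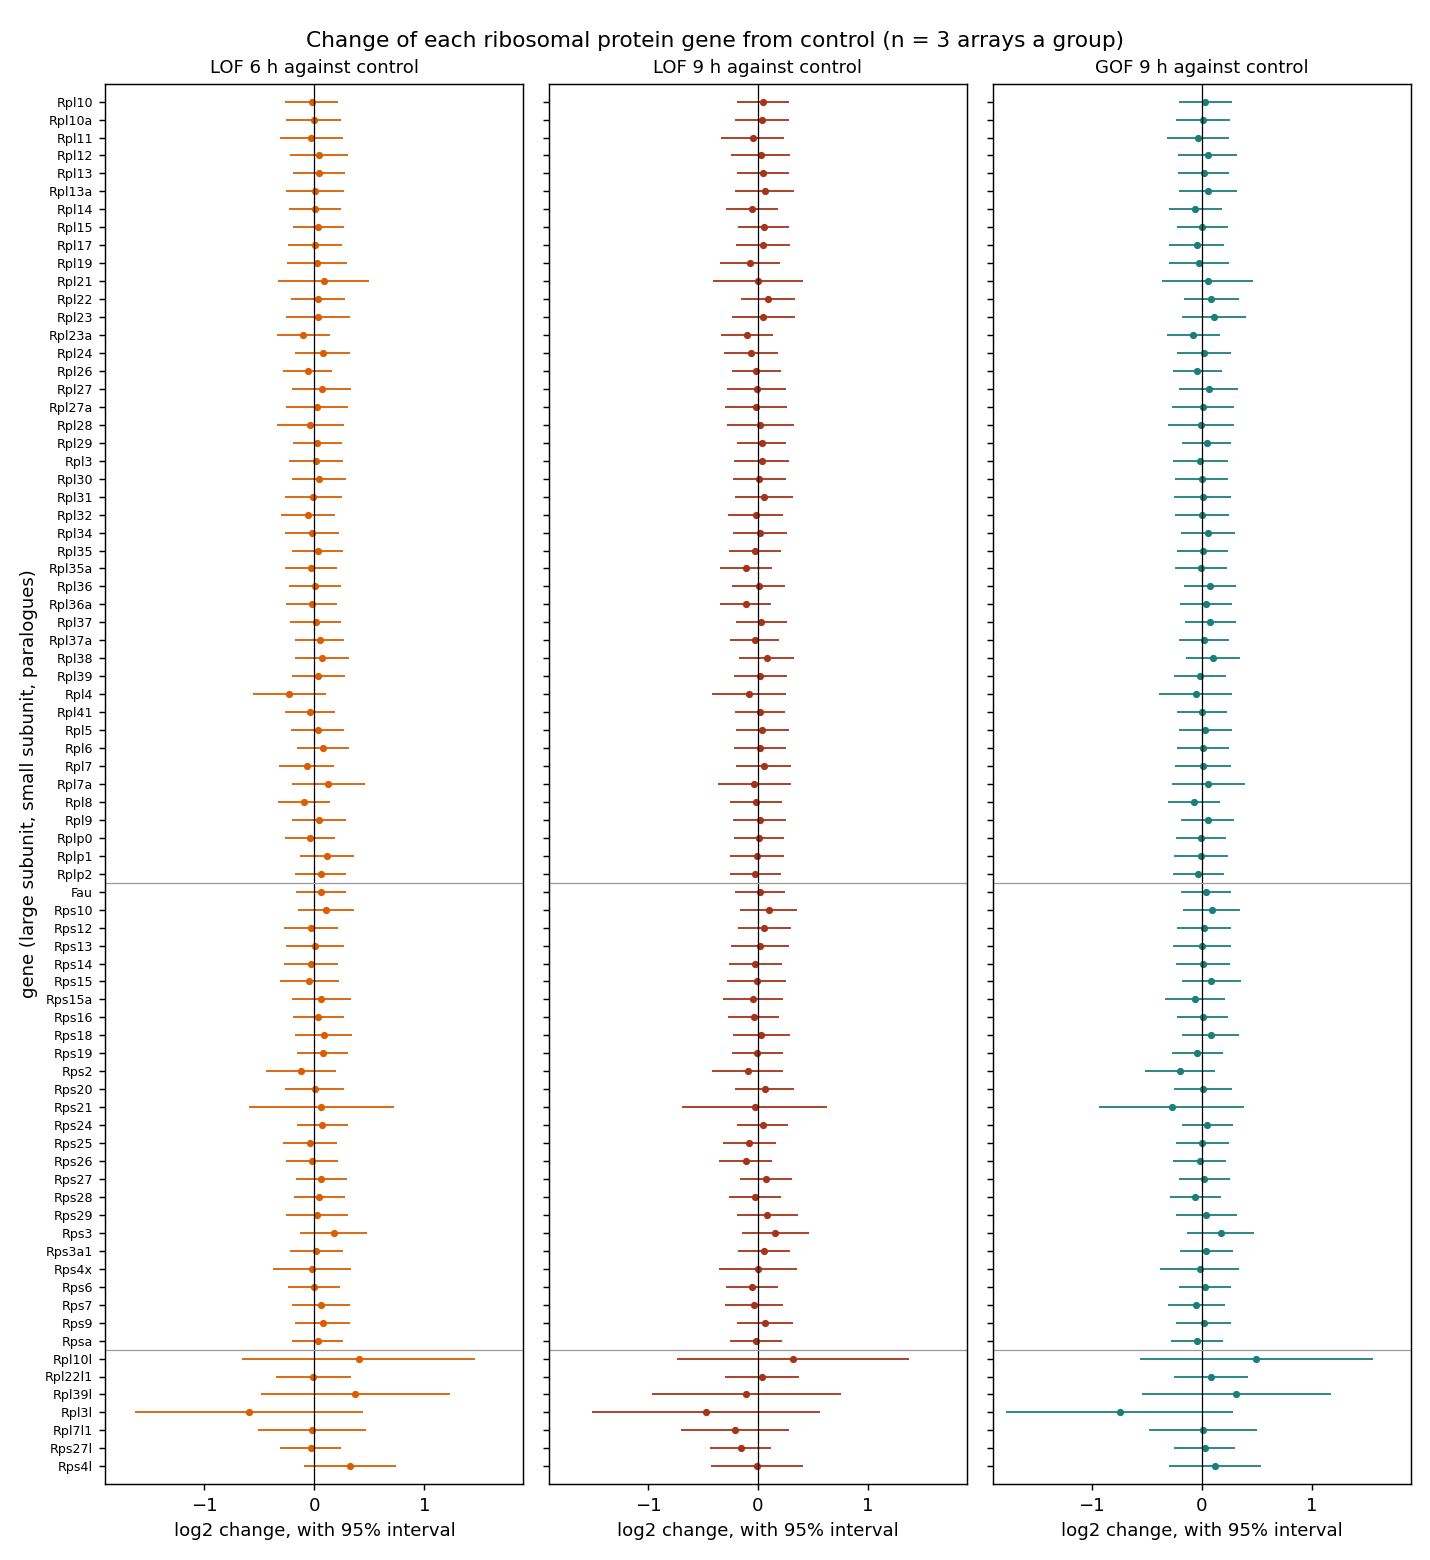
Points are the log2 changes of each of the 77 genes in LOF 6 h, LOF 9 h and GOF 9 h lungs against control lungs, and bars are 95% intervals from limma with 3 arrays a group. Intervals cross 0 for all 77 genes in the 3 panels, and the widest belong to Rpl3l and Rpl10l.

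Among large subunit proteins with a known role, Rpl5 and Rpl11 form with 5S RNA the particle that binds Mdm2 and stabilises p53 when assembly is disturbed. Rpl11 read 15.39, 15.61 and 15.67 in LOF 6 h lungs, 15.41, 15.63 and 15.58 in LOF 9 h lungs, 15.41, 15.61 and 15.65 in GOF 9 h lungs and 15.54, 15.61 and 15.61 in control lungs. The groups overlap, and the array numbered 1 is the lowest in all 4. Rpl5 had a log2 change of 0.03 ± 0.11 (SE) in LOF 6 h lungs and of 0.04 ± 0.11 in LOF 9 h lungs against control. The stalk protein Rplp0, often used as a reference gene in qPCR, read 15.79, 15.88 and 15.90 in LOF 6 h lungs, 15.86, 15.92 and 15.92 in LOF 9 h lungs, 15.88, 15.88 and 15.90 in GOF 9 h lungs and 15.90, 15.88 and 15.90 in control lungs. One LOF 6 h array is the lowest, and the other 11 arrays lie within 15.86 to 15.92. The highest value of any feature on any array was also 15.92, so these close values at the top of the scale do not show a steady message.

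Rpl4, which reaches with an extension into the exit tunnel, had the smallest p among the large subunit proteins in LOF 6 h lungs. It read 13.21, 13.51 and 13.37 there, against 13.69, 13.46 and 13.61 in control lungs, and the values overlap. Its change of -0.23 ± 0.15 (SE) had an adjusted p of 0.692 with limma. Rpl38, which mouse genetics links to the translation of Hox messages, read 15.02, 14.92 and 14.92 in GOF 9 h lungs, against 14.89, 14.85 and 14.81 in control lungs, so that the groups did not overlap. Its change was 0.10 ± 0.11 (SE), with an adjusted p of 0.997 with limma.

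Rpl36a, an X-linked large subunit gene, read 13.83, 13.74 and 13.72 in LOF 9 h lungs, against 13.84, 13.94 and 13.87 in control lungs. In GOF 9 h lungs it read 13.89, 13.93 and 13.94. The LOF 9 h values lie below those of both other groups. The log2 change was -0.11 ± 0.10 (SE) for LOF 9 h against control and 0.15 ± 0.10 for GOF 9 h against LOF 9 h, with adjusted p-values of 0.865 and 0.631 with limma. Rpl23a read 14.88, 14.95 and 14.95 in LOF 6 h lungs, 14.81, 14.99 and 14.98 in LOF 9 h lungs and 14.89, 14.97 and 14.99 in GOF 9 h lungs, against 15.06, 15.02 and 15.00 in control lungs. Every control value is above every other value, if only 15.00 above 14.99 for the closest pair, and its 3 changes of -0.10, -0.10 and -0.08 had SEs of 0.11.

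In the small subunit, Rps6, whose protein is the classical substrate of the S6 kinases downstream of mTOR, read 15.09, 15.03 and 15.12 in LOF 6 h lungs, 14.97, 15.06 and 15.06 in LOF 9 h lungs, 15.18, 15.10 and 15.05 in GOF 9 h lungs and 15.09, 15.13 and 15.02 in control lungs. The 4 groups overlap. Rps3, which lines the entry of the mRNA channel, had log2 changes of 0.17, 0.16 and 0.17 in LOF 6 h, LOF 9 h and GOF 9 h lungs against control, each with an SE of 0.14 and with adjusted p-values of 0.757, 0.849 and 0.983 with limma. It averaged 13.18 ± 0.17 in LOF 6 h lungs, 13.17 ± 0.09 in LOF 9 h lungs and 13.18 ± 0.04 in GOF 9 h lungs (SD, n = 3 each), against 12.81, 13.17 and 13.05 in control lungs. The groups overlap, and the 12.81 of a single array lies below all other values, so these 3 changes share that value.

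Rps19 and Rps24, genes mutated in human Diamond-Blackfan anaemia, had log2 changes of 0.08 and 0.07 in LOF 6 h lungs, -0.01 and 0.04 in LOF 9 h lungs and -0.04 and 0.05 in GOF 9 h lungs against control. Rps14, lost in the human 5q- syndrome, had log2 changes of -0.03, -0.02 and 0.01 in these groups. Rpsa, whose loss in human leads to isolated congenital asplenia, had log2 changes of 0.03, -0.02 and -0.04. Each of these values is smaller than its SE. Rps2, whose protein is methylated by Prmt3, read 14.58, 14.72 and 14.61 in GOF 9 h lungs, against 14.60, 15.13 and 14.76 in control lungs, and its change of -0.19 ± 0.14 (SE) had an adjusted p of 0.980 with limma. The groups overlap, and the 15.13 of 1 control array stands above all 11 other arrays.

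Of the paralogues, Rps27l, a p53 target gene in human, read 13.26, 13.25 and 13.23 in GOF 9 h lungs, against 12.89, 13.08 and 13.21 in LOF 9 h lungs, a change of 0.18 ± 0.12 (SE) with an adjusted p of 0.622 with limma. The LOF 9 h lungs spread over a wider range than the GOF 9 h lungs and do not overlap with them. Rps4l had the smallest p of all 77 genes in both comparisons with LOF 6 h. It read 10.86, 10.92 and 11.01 in LOF 6 h lungs and 10.46, 10.76 and 10.58 in LOF 9 h lungs, against 10.43, 10.42 and 10.96 in control lungs. The LOF 6 h values overlap with the control values but not with the LOF 9 h values, and the changes were 0.33 ± 0.19 (SE) for LOF 6 h against control and -0.33 ± 0.19 for LOF 9 h against LOF 6 h, with adjusted p-values of 0.641 and 0.598 with limma. Rpl3l, a paralogue of heart and skeletal muscle, had log2 changes of -0.60, -0.47 and -0.75 in LOF 6 h, LOF 9 h and GOF 9 h lungs against control, each with an SE of 0.47, at a level below the array median. Rpl22l1, the paralogue that Rpl22 represses in mouse, had log2 changes of -0.01, 0.03 and 0.09 in these comparisons, and Rpl22 itself of 0.03, 0.09 and 0.09.

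**Figure D3:**
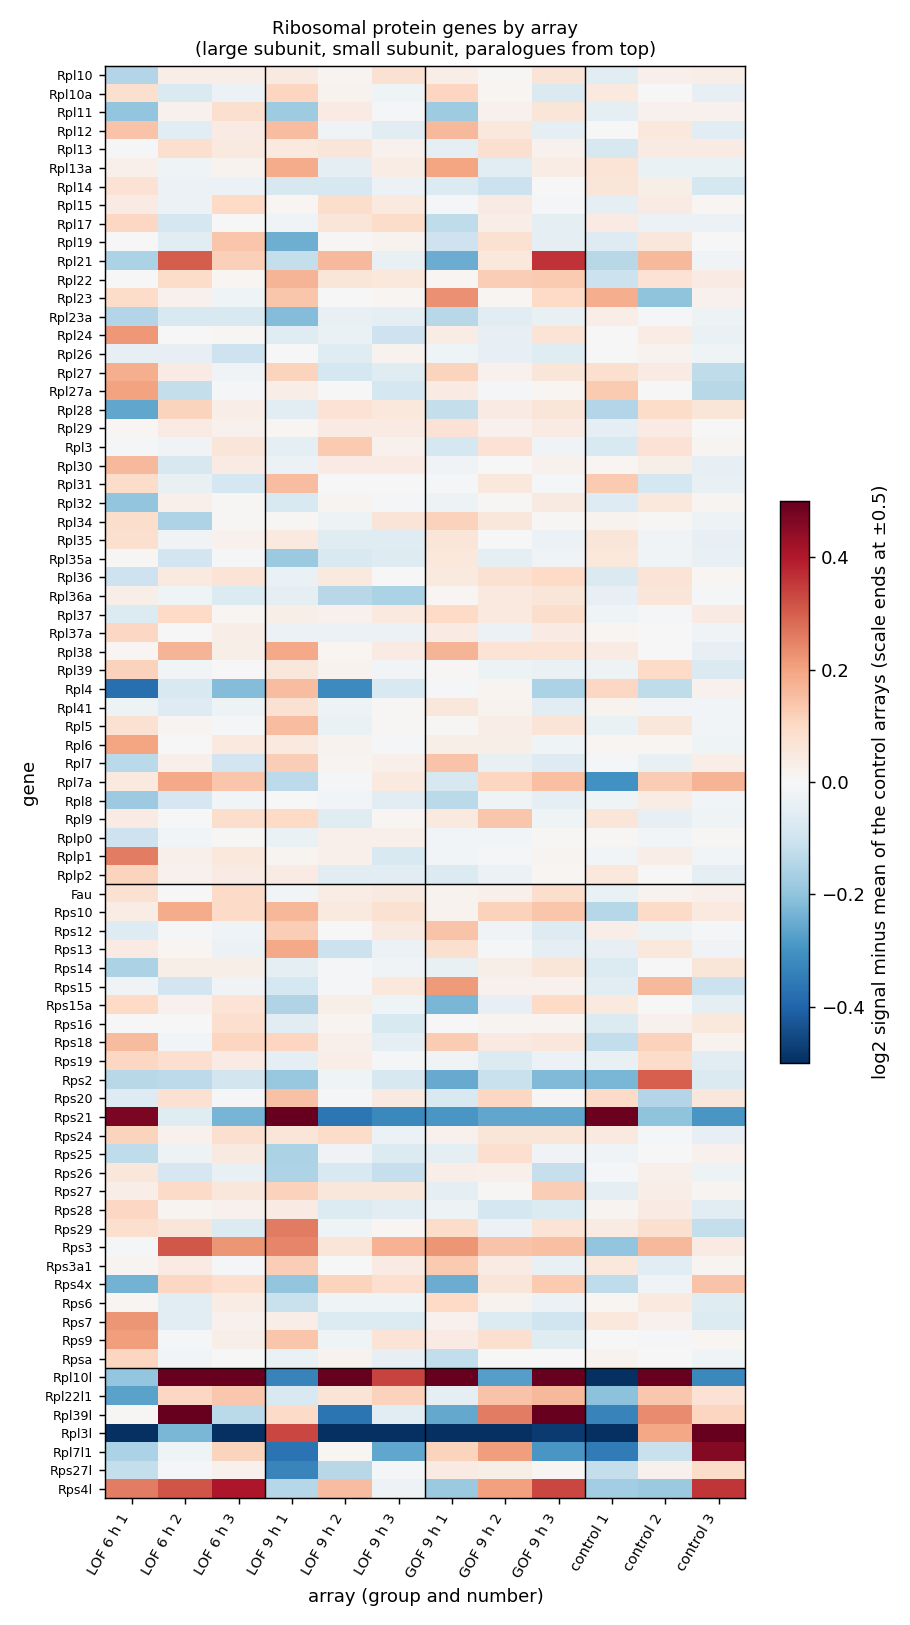
Rows are the 77 genes and columns the 12 arrays, and colour is the log2 signal minus the mean of the 3 control arrays, with the scale ending at 0.5 either way. Colours are pale for most genes in all 4 groups, with stronger ones in Rps21, Rpl21, Rpl4, Rps3 and most paralogues, and arrays numbered 1 repeat each other across groups, for instance low in Rps4x and Rpl11.

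Averaged over the 70 bright genes, the log2 signal was 14.98 to 15.00 on the 3 LOF 6 h arrays, 14.97 to 14.99 on the LOF 9 h arrays, 14.99 to 15.00 on the GOF 9 h arrays and 14.96 to 15.00 on the control arrays. The control range holds those of the 3 other groups. The large and small subunit genes had median log2 changes of 0.019 and 0.032 in LOF 6 h lungs, 0.015 and -0.003 in LOF 9 h lungs and 0.013 and 0.014 in GOF 9 h lungs against control.

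Within the 70 bright genes, the arrays numbered 1 of the 4 groups deviated from their group means in the same way, with correlations across genes of 0.34 to 0.57 in the 6 pairs of such arrays, and with correlations of -0.69 to -0.01 with arrays numbered 2 or 3. Over the 352 other bright genes the 6 pairs gave 0.23 to 0.46, and over all genes 0.08 to 0.10. The 352 genes pass the same signal cut but were not matched to the 70 for signal. The part of signal level in these differences was not tested. All genes share the same arrays, so the correlations are descriptions. Deviations within a group sum to 0, so the negative correlations follow in part from the positive ones. Within the 70 genes, pairs of arrays numbered 2 or 3 in different groups gave -0.16 to 0.60, with 23 of 24 above 0. Array 1 was the lowest or the highest of its 3 in all 4 groups for 20 of the 70 genes, or 28.6%, against 21.3% of the other bright genes and 7.79% of all genes. The same count for arrays numbered 2 or 3 is not given. Rps4x read 13.84, 13.88, 13.83 and 13.95 on the arrays numbered 1 of LOF 6 h, LOF 9 h, GOF 9 h and control lungs, and 14.06 to 14.22 on all 8 other arrays. Rps21 was high there, with 12.17, 12.29 and 12.19 on the arrays numbered 1 of LOF 6 h, LOF 9 h and control lungs and 11.34 to 11.64 on all 9 other arrays, including array 1 of GOF 9 h. The labels do not say what the number stands for, and fits with and without these arrays are given next. With a term for array 1 added, 0 of 77 passed and 0 had an unadjusted p under 0.05 in each of the 5 comparisons. Without the 4 arrays numbered 1, 0 passed, and the dim Rpl3l alone had an unadjusted p under 0.05, in each of the 3 comparisons with control.

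**Figure D4:**
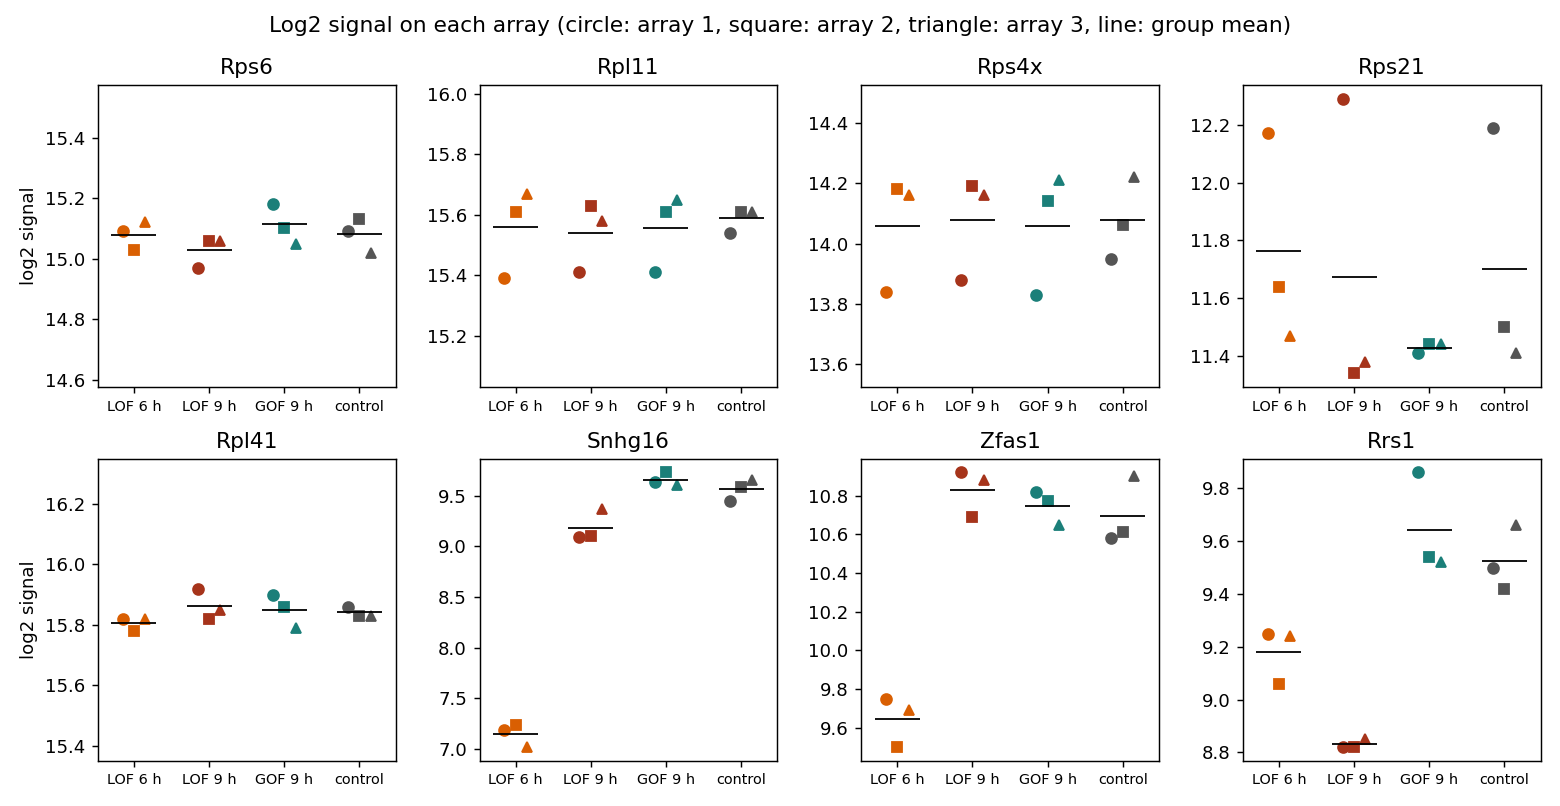
Each panel is a gene, the y axis is log2 signal, and points are arrays, with circles for array 1, squares for array 2, triangles for array 3 and lines for group means. Array 1 is apart in Rps4x and Rps21 in at least 3 groups, whereas Snhg16 and Zfas1 lie lower on all 3 LOF 6 h arrays than on all other arrays.

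Of the 77 genes, 25 had a single feature and 52 had more, up to 12 for Rpl23, 178 features in all. The brightest feature of a gene can lie near the highest values of the scale, so the 35 features of 22 genes with a mean from 6 to below 13 are given too. Their median changes were 0.081, 0.006 and 0.024 in LOF 6 h, LOF 9 h and GOF 9 h lungs against control, and 0 of 35 passed in each. A dimmer feature of Rpl39 had a log2 change of 0.55 ± 0.15 (SE) in LOF 6 h lungs at an adjusted p of 0.310, and one of Rpl17 of 0.68 ± 0.24 at 0.460, both with limma over all features, whereas the brightest features of these genes had 0.03 and 0.01. A second feature of Rps3a1, at 13.8, had a log2 change of -0.51 ± 0.18 in GOF 9 h lungs at an adjusted p of 0.950, while that of the brightest was 0.04. The features of these 3 genes thus disagree in size, and those of Rps3a1 in sign.

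Ribosome biogenesis factors process ribosomal RNA and assemble the subunits. Of 25 such genes, 24 were below control in LOF 9 h lungs, with a median log2 change of -0.33, against -0.00023 over all genes. An unadjusted p under 0.05 with a lower value was found for 13 of the 25, against 4.17% of all genes, and 0 of the 25 passed after adjustment. The paper's list of likely FGF10 targets, picked by p-value in LOF lungs against control, already holds Rrs1 and Rrp9 of the 25. The count is therefore not independent of that selection, and the share of all genes is not matched for signal. Averaged over the 25 genes, the log2 signal was 9.32 to 9.47 on the LOF 6 h arrays, 9.15 to 9.26 on the LOF 9 h arrays, 9.55 to 9.72 on the GOF 9 h arrays and 9.56 to 9.61 on the control arrays, so both LOF ranges lie below that of control. In LOF 6 h lungs 22 of the 25 were below control, the median was -0.19 and 5 had such a p, against 4.56% of all genes. In GOF 9 h lungs the median was 0.08 and 0 of the 25 had an unadjusted p under 0.05. In GOF 9 h lungs against LOF 9 h lungs, a comparison that shares the LOF 9 h arrays with the one above, the median was 0.43 and 15 were higher at an unadjusted p under 0.05, against 6.03% of all genes. In that comparison 7 of 8 lung epithelium markers were above 0, 4 of them at such a p, while 6 of 6 smooth muscle, 8 of 8 endothelium, 7 of 8 macrophage and 9 of 11 heart markers were below 0. Of these, 4, 4, 3 and 5 were lower at such a p, against 5.88% of all genes. At such a p, 1 macrophage and 1 heart marker were higher, against 6.03% of all genes. The mean level of the smooth muscle markers was 9.50 to 10.72 in GOF 9 h lungs and 11.02 to 11.17 in LOF 9 h lungs, and that of the endothelium markers was 7.84 to 8.06 in GOF 9 h lungs and 8.16 to 8.56 in LOF 9 h lungs. In LOF 9 h lungs against control, 7 of 8 lung epithelium markers were below 0, 4 of them at such a p. Epcam alone lay above control at such a p, with 8.81 to 8.97 against 8.18 to 8.50. Its log2 changes were 0.46 ± 0.19 (SE) in LOF 6 h and 0.52 ± 0.19 in LOF 9 h lungs. The paper proposes Sftpc, Id2, Shh, Sox9 and Nkx2-1 of the lung epithelium list as FGF10 targets, so these markers do not read epithelial share alone. Against control, 5 of 6 smooth muscle, 7 of 8 endothelium and 7 of 8 macrophage markers were above 0 in LOF 9 h lungs. So were 7 of 11 heart and 6 of 8 lung mesenchyme markers. At an unadjusted p under 0.05, 2 endothelium, 1 macrophage and 1 mesenchyme marker were higher, and 1 macrophage and 1 mesenchyme marker lower. With 0 smooth muscle and 0 heart markers at such a p, the share of all genes either way was 7.92%. The part of all these markers in the biogenesis values was not tested. Without the arrays numbered 1, the biogenesis counts were 3 of 25 in LOF 6 h and 8 in LOF 9 h lungs against control. For GOF 9 h against LOF 9 h lungs the count was 10. That fit leaves 2 arrays a group. Shares of all genes under it are not given, so these counts are not read as a result.

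Rrs1, needed for the assembly of the 5S particle into the large subunit in yeast, was the only one of the 25 that passed in any comparison. In that fit, 0.169% of all genes passed as higher in GOF 9 h against LOF 9 h lungs. With a trended and robust variance more of the 25 passed, as did more of all genes, and both counts are given in the last section. Rrs1 read 9.86, 9.54 and 9.52 in GOF 9 h lungs, against 8.82, 8.82 and 8.85 in LOF 9 h lungs, and the groups are far apart. The change of 0.81 ± 0.13 (SE) had an adjusted p of 0.0467 with limma, which ranged from 0.0602 to 0.156 when each of the 12 arrays was left out in turn, so that the call was lost each time. Rrp9, a protein of the U3 small nucleolar particle, read 7.15, 7.34 and 7.35 in LOF 9 h lungs, against 7.73, 8.56 and 8.25 in control lungs, a change of -0.90 ± 0.19 (SE) with an adjusted p of 0.220. Among 10 chaperones and importins of ribosomal proteins, Grwd1, a chaperone of Rpl3 in yeast and human, had a log2 change of -0.66 ± 0.16 and Ipo5, an importin, of -0.33 ± 0.14 in LOF 9 h lungs against control, with adjusted p-values of 0.274 and 0.589 with limma. Of 11 genes of RNA polymerase I and its factors, 2 had an unadjusted p under 0.05 in LOF 9 h lungs, Polr1b and Polr1e, both lower, where 4.17% of all genes were lower at such a p, and 0 passed. Of 18 genes of mTOR, MYC and LARP1 control, Mycn, a MYC family factor of the embryonic lung epithelium, alone had such a p in LOF 9 h lungs, against 7.92% of all genes, with a log2 change of -0.59 ± 0.15 and an adjusted p of 0.298. Of 6 genes of the p53 response, 1 had an unadjusted p under 0.05 in LOF 6 h and in LOF 9 h lungs against control. Over all genes these shares were 9.36% and 7.92%. The gene was Btg2, an antiproliferative p53 target, with log2 changes of 0.66 ± 0.20 and 0.90 ± 0.20. Its adjusted p-values were 0.320 and 0.224 with limma. Of the 6 genes, 4 and 5 lay above 0. The p53 targets Cdkn1a and Mdm2 had 0.36 ± 0.31 and -0.13 ± 0.17 in LOF 6 h lungs and -0.24 ± 0.31 and 0.19 ± 0.17 in LOF 9 h lungs. The 29 ribosomal protein pseudogenes left out of the list had 0 calls in the 5 comparisons.

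Many snoRNA host genes are known to start with the pyrimidine tract of the ribosomal protein genes, and 6 of 16 on the list were measured here. In LOF 6 h lungs their median log2 change from control was -0.82, against 0.025 over all genes, with a range of -2.42 to 0.02. Of the 6, 2 passed, both lower, against 0.0482% of all genes. Snhg16 read 7.19, 7.24 and 7.02 in LOF 6 h lungs, 9.09, 9.10 and 9.37 in LOF 9 h lungs and 9.64, 9.73 and 9.61 in GOF 9 h lungs, against 9.45, 9.59 and 9.66 in control lungs. All LOF 6 h values lie far below those of the 9 other lungs, and Snhg16 fell by 2.42 ± 0.13 (SE) against control, with an adjusted p of 5.87e-05 with limma. The call held when each array was left out in turn and was lost at an adjusted p of 0.137 without the 4 arrays numbered 1, which leaves 2 arrays a group.

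Zfas1 read 9.75, 9.50 and 9.69 in LOF 6 h lungs, 10.92, 10.69 and 10.88 in LOF 9 h lungs and 10.82, 10.77 and 10.65 in GOF 9 h lungs, against 10.58, 10.61 and 10.90 in control lungs. Against control, it fell by 1.05 ± 0.14 (SE) in LOF 6 h lungs, with an adjusted p of 0.0395 with limma. Leaving out each array in turn gave adjusted p-values of 0.0273 to 0.135, and the call was lost for 11 of the 12 arrays, all but array 1 of GOF 9 h. Snhg3 had a log2 change of -0.95 ± 0.29 and Snhg17 of -0.68 ± 0.28 in LOF 6 h lungs, with adjusted p-values of 0.330 and 0.475. Not all hosts fell alike in LOF 6 h lungs. Gas5 had a log2 change of -0.26 ± 0.31 (SE), with overlapping groups. Snhg12 had 0.02, at a mean signal of 2.65 that lies below the array median of 2.98. In the same lungs, 9 of 11 heart markers and 10 of 10 erythroid markers lay above control, as did 9 of 9 neural, 8 of 8 macrophage and 6 of 6 smooth muscle markers and 4 of 8 endothelium markers. At an unadjusted p under 0.05, 5 heart, 3 erythroid, 1 neural, 2 macrophage, 0 smooth muscle and 0 endothelium markers were higher, against 4.8% of all genes. The mean level of the heart markers was 7.56 to 8.23 in LOF 6 h lungs, 6.51 to 7.35 in LOF 9 h lungs, 6.01 to 6.63 in GOF 9 h lungs and 6.50 to 7.41 in control lungs, and that of the erythroid markers was 10.03 to 10.33 in LOF 6 h lungs, 9.55 to 9.63 in LOF 9 h lungs, 9.57 to 9.76 in GOF 9 h lungs and 9.05 to 10.06 in control lungs. That of the neural markers was 6.23 to 6.71 in LOF 6 h lungs and 5.76 to 6.10 in control lungs, and that of the macrophage markers was 6.89 to 7.14 in LOF 6 h lungs and 6.61 to 6.71 in control lungs. The heart, neural and macrophage ranges of LOF 6 h do not overlap with control, and the erythroid ranges do. The part of these markers in the LOF 6 h results was not tested.

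Of 18 translation factors whose messages also carry the pyrimidine tract, 0 passed in any comparison, and the median changes were 0.059, -0.005 and 0.011 in LOF 6 h, LOF 9 h and GOF 9 h lungs against control. Eif4a2, an RNA helicase of initiation, had a log2 change of -0.76 ± 0.23 (SE) in LOF 6 h lungs, with an adjusted p of 0.331. The 78 mitochondrial ribosomal protein genes, whose products build the separate ribosome of that organelle, had medians of 0.08, -0.06 and 0.03 in these comparisons, and 0 passed. Between the LOF times, their median was -0.14 for LOF 9 h against LOF 6 h, with 70 of 78 lower, 9 of them at an unadjusted p under 0.05, against 5.27% of all genes, beside a median of -0.03 over all genes. With each array centred on its median these became -0.08 and 3 genes, beside 0.03 over all genes. The median of the cytosolic ribosomal protein genes was -0.01, or 0.05 with that centring.

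**Figure D5:**
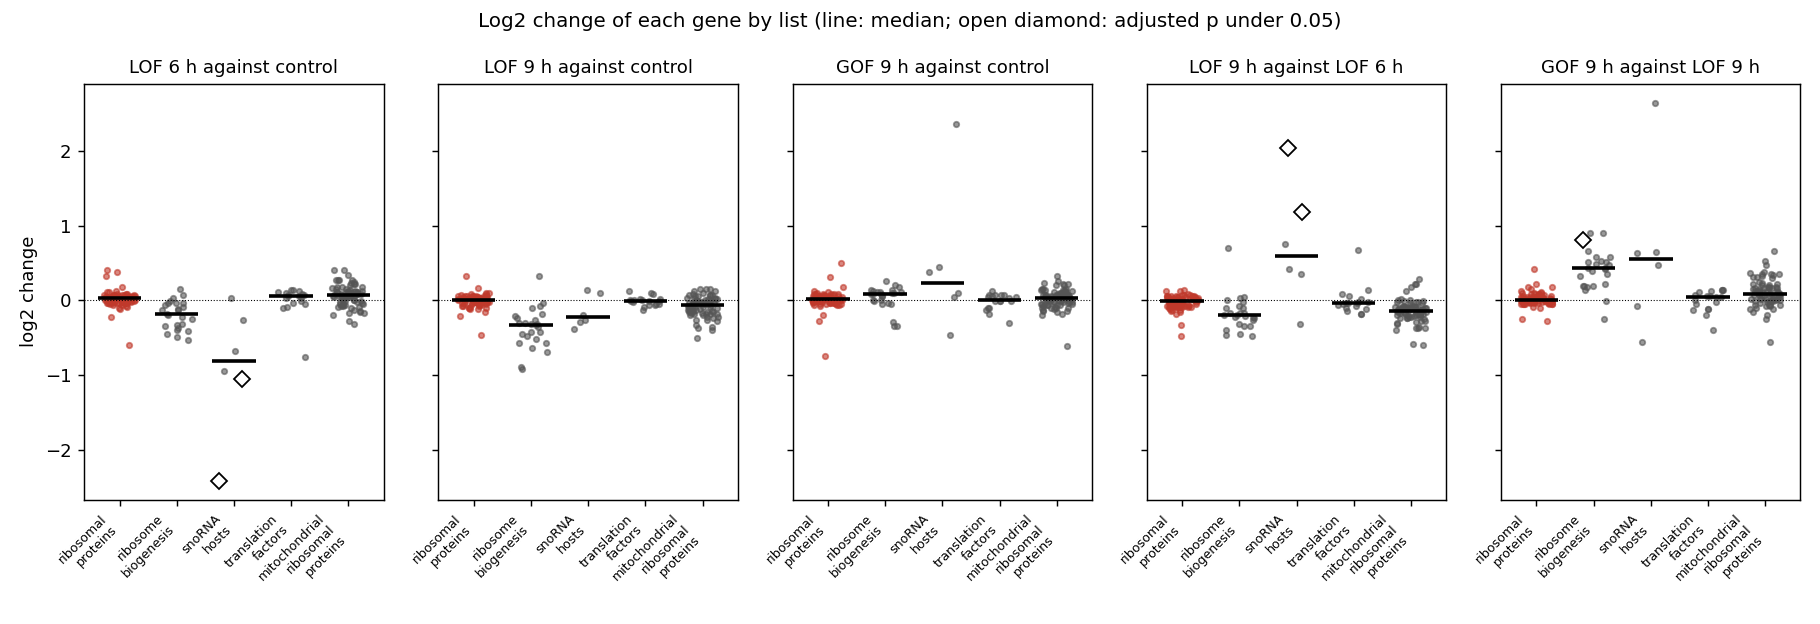
Points are genes and the y axis is the log2 change, with a panel for each of the 5 comparisons, lines at the medians and open diamonds for an adjusted p under 0.05. Cytosolic ribosomal protein genes, in red, lie around 0 in all panels, the ribosome biogenesis median is -0.33 in LOF 9 h against control and 0.43 in GOF 9 h against LOF 9 h, and the diamonds are Snhg16, Zfas1 and Rrs1.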

How the data were processed

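The authors corrected Cy3 spot signals for background with NormExp on negative control spots, took logarithms and quantile-normalized the arrays with limma, and the deposited table holds log2 intensity for 62976 features on 12 arrays. Quantile normalization gives all arrays the same distribution, so a shift shared by most of the brightest features would not be seen.

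Groups came from the labels. Features were named through the platform annotation and RefSeq, and 31465 carried 1 gene symbol. For each of 20738 genes the brightest feature was used. Linear models with group means over all 12 arrays were fitted with limma 3.58.1 in R 4.3.3, with moderated statistics (residual degrees of freedom 8, prior 2.27). P-values are two-sided and were adjusted by Benjamini and Hochberg over the 20738 genes, with a threshold of 0.05. The script was tested on simulated data. The number of arrays limits the precision. Saturation flags were not used here.

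The genes of the list, the other lists and the tests were chosen with earlier results of these data known. Named genes are, per comparison, the 4 with the smallest p in each direction, the brightest and dimmest 3, those on lists of known roles and of paralogues, those where the choice of feature turned the sign of a change at an unadjusted p under 0.05, and from each other list up to 3 genes with the smallest p and any past the threshold. Rpl21, Rpl26, Rpl35, Rpl37 and Rpl37a, named for a level, for groups without overlap or for a start window, fall outside that rule and were chosen after their values or windows were seen. Alternatives were other normalizations, feature choices, signal filters, variance models, array weights, a replicate block and leaving out each array, and, added after the data were seen, a term for the arrays numbered 1, a fit without them and a fit on each gene's own spread.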

Additional observations from a re-analysis of the deposited data

Results flagged for a closer look

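The change of Snhg16 between the LOF times was picked out because the effect differed between times under the test of that difference itself: LOF 9 h lungs lay 2.03 ± 0.13 (SE) above LOF 6 h lungs on the log2 scale, with an adjusted p of 0.000325 with limma, and all 3 LOF 9 h arrays were above all 3 LOF 6 h arrays. The call was lost when only the 2 groups were fitted (adjusted p of 0.0722) and without the 4 arrays numbered 1 (0.255), and leaving out each array in turn gave 0.00118 to 0.0041.

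Zfas1 was picked out in the same way, with LOF 9 h lungs 1.18 ± 0.14 (SE) above LOF 6 h lungs and an adjusted p of 0.0253 with limma, again with all 3 arrays above all 3. Leaving out each array in turn gave adjusted p-values of 0.0246 to 0.117, and the call was lost when any of the 6 LOF arrays was left out. No explanation was tested for either gene.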

How the results depend on the processing

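The count of 0 ribosomal protein genes with an adjusted p under 0.05 held in all 5 comparisons under the 28 alternatives run for each. Counts at an unadjusted p under 0.05 were 0 in the limma fit. Given in the order of the report (the 3 comparisons with control, then LOF 9 h against LOF 6 h, then GOF 9 h against LOF 9 h), they became 2, 0, 2, 1 and 2 with every feature on its own, 2, 0, 0, 2 and 2 with a trended and robust variance, 1, 1, 1, 0 and 0 without the arrays numbered 1, and 1, 3, 0, 2 and 2 on each gene's own spread. The last 2 alternatives were chosen after seeing the data. Shares of all genes at an unadjusted p are not given for these alternatives, so the counts are listed without a reading. Leaving out each array in turn gave 0 to 1 in the comparisons with control and 0 to 0 in the other 2, the 1 being Rpl3l without control array 1, or Rps4l in LOF 6 h lungs without control array 3.

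Median changes under centring each array on its median were -0.0394, 0.0314, 0.0493 and 0.0293 in all comparisons but LOF 9 h against control. Without the arrays numbered 1 they were 0.0051 in LOF 6 h and -0.0093 in LOF 9 h against control and 0.0219 in GOF 9 h against LOF 9 h. Leaving out each array gave 0.0115 to 0.0338, -0.0025 to 0.0131, 0.0074 to 0.0237, -0.0261 to 0.0029 and -0.0005 to 0.0219. Within groups, the array median of these genes had an SD of 0.0138, so several of these medians are smaller than the spread between arrays. Over all genes, 15, 15, 0, 13 and 58 passed, against 122, 104, 3, 161 and 500 with a trended and robust variance, 9, 23, 0, 22 and 119 on own spread, 5, 10, 0, 8 and 73 with the term for arrays numbered 1 and 0, 2, 0, 0 and 0 without these arrays. Of the 25 ribosome biogenesis genes, 4 passed in LOF 9 h lungs against control and 10 in GOF 9 h against LOF 9 h lungs with a trended and robust variance. These stand beside the 104 and 500 of all genes that passed under that variance.

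Replicate numbers are shared by the groups. Over all genes, residuals of same-numbered arrays correlated by -0.003 to 0.103, and the 6 pairs of arrays numbered 1 by 0.08 to 0.10. Within the 70 bright genes these 6 pairs gave 0.34 to 0.57, so the arrays numbered 1 share a deviation. The labels do not say what the number stands for, and the main fit did not pair the lungs by it. With the number as a replicate block, 0 ribosomal protein genes passed and 0 had an unadjusted p under 0.05 in all 5 comparisons, and the medians were 0.0251, 0.007, 0.0138, -0.0111 and 0.0076. Under the block the calls of Zfas1 (adjusted p of 0.0834 in LOF 6 h against control and 0.0553 in LOF 9 h against LOF 6 h) and Rrs1 (0.0831) were lost, and those of Snhg16 were kept. Adding Rpl36al to the list left the count of 0 in all 5 comparisons. Signals near the top of the scale and the size of 3 lungs a group limit what could be seen.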
